A study of Mus musculus with 8 samples.

Results

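The genes examined here were 10 genes of Bardet-Biedl syndrome (BBS), a ciliopathy whose features include loss of photoreceptors. They were 7 subunits of the BBSome (Bbs1, Bbs2, Bbs4, Bbs5, Bbs7, Bbs9 and Ttc8) and 3 chaperonin-like genes (Bbs10, Bbs12 and Mkks). They were taken by name, through the RefSeq transcript given for each array probe. The rule itself used no measured value, but the genes were picked with earlier results of these data known. All 10 genes were on the array, with 14 of its 55681 probes, and all 14 probes were well above background on all 8 arrays. They stood among 14940 named genes and 33975 probes that could be tested. Whole retinas of 2-week-old C57BL/6 mice were compared between Lpcat1 wildtype (WT) and Lpcat1 knockout (KO) animals, with 4 samples of each genotype. Lpcat1 encodes a phospholipid-remodelling acyltransferase that turns lysophosphatidylcholine into phosphatidylcholine. The knockout is germline and present in every cell of the animal, and the methods describe a C57BL6/N line crossed to C57BL6/J to remove the rd8 mutation of Crb1. The labels number the samples but do not say whether each came from a separate animal, so the p-values measure the spread between these samples.

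The BBSome is a coat-like complex that moves membrane proteins out of and along cilia. It is recruited to membranes by the small GTPase Arl6 and travels with the intraflagellar transport trains. In photoreceptors, whose outer segment is a modified primary cilium, it is known for removing proteins that do not belong in the outer segment. Bbs10, Bbs12 and Mkks are related to the subunits of the CCT chaperonin and, together with CCT, help Bbs2 and Bbs7 to fold and join before the other subunits are added.

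Promoter letters of regulatory factor X (RFX), the transcription factor family known for switching on cilium genes, are shown first. Windows of 300 bases around each start (250 before and 50 after) were read from RefSeq promoters of build GRCm38.p6, and 10 of 10 genes had one. The RFX half-site GTTGCC, searched on both strands, was found in 3 of 7 core genes and 0 of 3 chaperonin-like genes, and in 12.5% of 32851 promoters. A gene counted when any of its promoters matched, whereas the shares given here are over single promoters. The full RFX inverted repeat, a half-site followed by its reverse complement with open letters between and within them, was found in 1 gene, Bbs7, where it overlaps the half-site match, and in 0.451% of promoters. The matches are shown 5′ to 3′ on the strand of the gene with the matched letters in capitals, in chr3:36613489-36613518 (minus strand) for Bbs7, chr19:4906609-4906638 (minus strand) for Bbs1 and chr2:69647201-69647220 (plus strand) for Bbs5.
Bbs7: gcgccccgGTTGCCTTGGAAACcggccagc
Bbs1: atggctgagctgGTTGCCaaggcgacgcct
Bbs5: caaagccggcgcGTTGCCtt
The Bbs7 match began 121 bases before the start, whereas those of Bbs1 and Bbs5 began at bases 2 and 43 of the transcribed sequence. The NRF1 palindrome was found in 0 of the 10 genes (4.6% of promoters). The photoreceptor homeobox core TAATCC was found in 1 gene, Bbs1 (7.06% of promoters). These matches describe letters only, and no binding was measured. Their part in the differences between genotypes was not tested.

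Each sample was hybridised in 1 colour to 1 array, and all 8 arrays shared 1 slide and 1 scan. The WT arrays filled one row of the slide and the KO arrays the other, so row and genotype cannot be told apart. Between 33113 and 36366 probes per array were well above background, and the 75th percentile signal lay between 638.4 and 737.8. Levels are log2 signals relative to that percentile, and differences are KO minus WT on that scale. Each is given with its standard error (SE) and its limma p, adjusted by Benjamini-Hochberg over all tested probes. The Lpcat1 probe was at -0.42, -0.39, -0.43 and -0.38 in WT and at -0.88, -0.92, -0.90 and -0.78 in KO, so the genotypes did not overlap at the targeted gene (difference -0.46, SE 0.04, limma adjusted p = 0.0036). Whether this probe reads sequence that the knockout removes is not known here. The tissue label was met by the rod markers, whose mean WT levels at the brightest probe ran from 5.16 (Rdh12) to 8.68 (Prph2). Of them 18 of 18 were tested, though being tested alone does not show the tissue.

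Differences at the BBS genes were small, and 6 of 7 core subunits and 2 of 3 chaperonin-like genes lay below 0. Of the 10 genes, 8 had a difference below 0 at their brightest probe, and the median over the 10 was -0.15. Over all 14940 tested genes the median was -0.02, and 57.8% of genes lay below 0. With calls limited to an adjusted p under 0.05 and changes over 1.2-fold, 1 of the 10 genes was called lower (Bbs5), where 1.77% of all tested genes were called lower, and 0 were called higher by limma or by the methods' t-test (2.2% of all genes by limma). At an unadjusted p under 0.05 the brightest probe of 6 of the 10 genes was lower (15.3% of all genes) and that of 1, Mkks, was higher (10.9% of all genes). All KO samples lay below all WT samples at the brightest probe of 6 of the 10 genes (12.4% of all genes), namely Bbs1, Bbs5, Bbs7, Bbs9, Ttc8 and Bbs10, and at 8 of the 14 probes (11.4% of all probes). With the adjusted p alone and no minimum fold, 5 of the 10 genes had a lower probe (Bbs1, Bbs5, Bbs7, Bbs9 and Ttc8), against 3.91% of all tested genes. The 5 were all core subunits. Without a minimum fold this count depended on the scaling, being 3 under quantile normalization or cyclic loess and 1 under a median shift, and it was 0 with no filter on dim probes. It was 3 without KO replicate 1, 1 without KO replicate 3, and 0 when any of the other 6 arrays was left out.

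**Figure D1:**
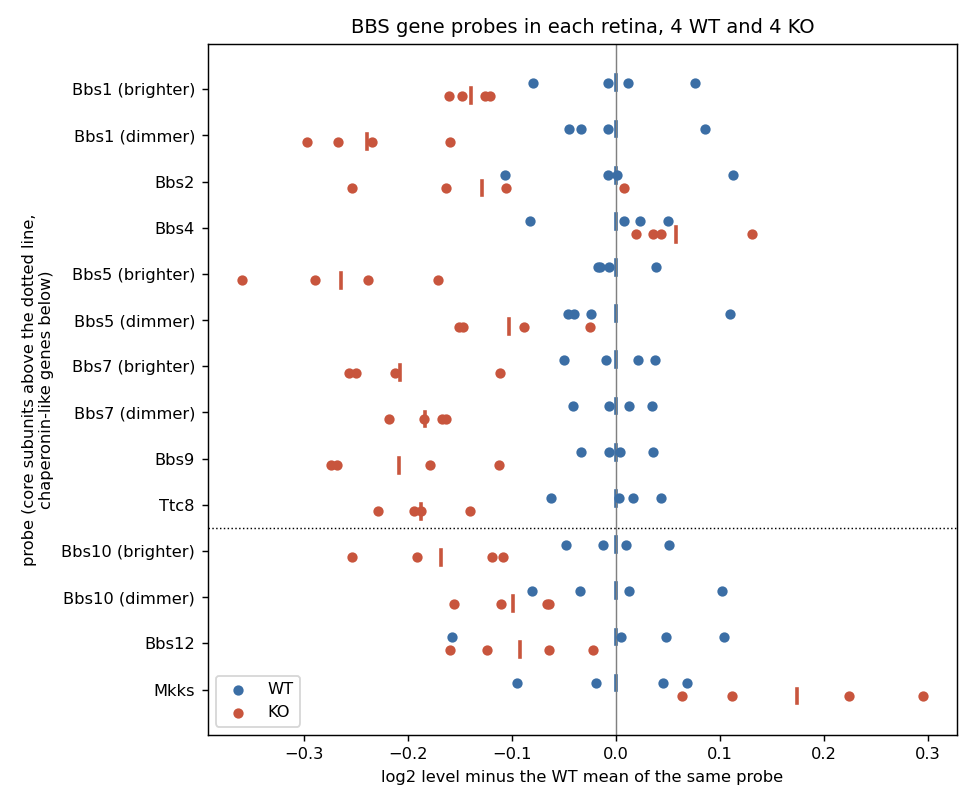
Log2 level of each of the 14 BBS probes in each retina, minus the WT mean of the same probe, for 4 WT samples (blue) and 4 KO samples (red), with short bars at the means; core subunits are above the dotted line and chaperonin-like genes below, and brighter and dimmer name the probes of a gene that has more than 1. The KO samples lie wholly below the WT samples at 8 of the 14 probes, and at Mkks 3 of the 4 KO samples lie to the right of all WT samples.

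Among the core subunits the largest difference was at Bbs5, a subunit with pleckstrin homology-like domains that bind phosphoinositides. Its brighter probe was at 2.84, 2.83, 2.84 and 2.89 in WT and at 2.68, 2.56, 2.61 and 2.49 in KO. Every KO sample was below every WT sample, and the signal in KO was 83.2% of that in WT. The difference was -0.26 (SE 0.05, limma adjusted p = 0.0242; two-sided exact permutation p = 0.0286, the smallest that 4 against 4 samples can give). This is close to the limit of 1.2-fold, and the call was lost under each of the 4 other scalings tried (differences of -0.25 to -0.23). The authors' normalized values also lost it (-0.25). So did the fit with no filter on dim probes (limma adjusted p = 0.0839) and that with replicate number as a block (limma adjusted p = 0.0689). Of the 8 fits with an array left out, the call stayed only in the 1 without KO replicate 1, with an adjusted p of up to 0.0721 without KO replicate 2. The dimmer Bbs5 probe was at 0.71, 0.73, 0.72 and 0.87 in WT and at 0.73, 0.60, 0.67 and 0.61 in KO. There the genotypes overlapped, and the difference was -0.10 (SE 0.05, limma adjusted p = 0.268), or -0.07 without WT replicate 4 (limma adjusted p = 0.443). The probes of Bbs5 thus gave differences 0.16 apart on the log2 scale.

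Bbs7 and Bbs9 are beta-propeller subunits, and Bbs7 pairs with Bbs2 in the complex that the chaperonins help to build. The brighter Bbs7 probe was at 2.98, 3.02, 3.05 and 3.07 in WT and at 2.92, 2.82, 2.77 and 2.78 in KO. Its other probe was at 2.80, 2.76, 2.82 and 2.84 in WT and at 2.64, 2.59, 2.62 and 2.64 in KO. Both probes separated the genotypes without overlap, with differences of -0.21 (SE 0.05) and -0.18 (SE 0.04) and limma adjusted p of 0.0404 and 0.0296. Bbs9 was at 3.54, 3.53, 3.51 and 3.58 in WT and at 3.43, 3.27, 3.36 and 3.27 in KO. All 4 KO values were again the lower ones (difference -0.21, SE 0.05, limma adjusted p = 0.0437). The KO signal was 86.6% of WT at Bbs9 and at the brighter Bbs7 probe, short of the minimum fold.

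Ttc8, the tetratricopeptide repeat subunit also named BBS8, was at 3.26, 3.29, 3.18 and 3.25 in WT and at 3.05, 3.06, 3.11 and 3.02 in KO. The samples of the genotypes did not overlap, and the difference was -0.19 (SE 0.04, limma adjusted p = 0.0375). Bbs1, the beta-propeller subunit through which the complex binds Arl6, had probes of unequal size of change. Its brighter probe was at 3.85, 3.94, 3.92 and 4.00 in WT and at 3.77, 3.80, 3.81 and 3.78 in KO, a difference of -0.14 (SE 0.04) that missed the threshold (limma adjusted p = 0.0919). The dimmer probe was at 0.69, 0.56, 0.60 and 0.58 in WT and at 0.34, 0.31, 0.45 and 0.37 in KO. Here the difference was -0.24 (SE 0.05, limma adjusted p = 0.0318), a KO signal at 84.7% of WT. Neither Bbs1 probe showed any overlap between genotypes.

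The remaining core subunits, Bbs2 and Bbs4, overlapped between genotypes. Bbs2, the beta-propeller partner of Bbs7, was at 1.97, 2.08, 2.07 and 2.19 in WT and at 1.83, 1.97, 1.92 and 2.09 in KO. Its difference of -0.13 (SE 0.07) did not pass the test (limma adjusted p = 0.297), and the 95% interval ran from -0.29 to 0.03. Bbs4, a tetratricopeptide repeat subunit that binds Pcm1 at centriolar satellites, was at 4.05, 4.15, 4.18 and 4.14 in WT and at 4.15, 4.16, 4.17 and 4.26 in KO. It was the 1 core subunit with a difference above 0 (0.06, SE 0.04, limma adjusted p = 0.479), and it stayed above 0 in all 25 alternatives, scalings included, at 0.01 (normexp) to 0.10 (cyclic loess), and at 0.03 without WT replicate 1 or without KO replicate 4. The interval of Bbs4, from -0.05 to 0.16, did not reach the difference of any of the 5 subunits named above at their brightest probe. That comparison sets the interval of Bbs4 beside single differences and is not a test between genes. The interval of the brighter Bbs1 probe, from -0.24 to -0.04, overlapped that of Bbs4.

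**Figure D2:**
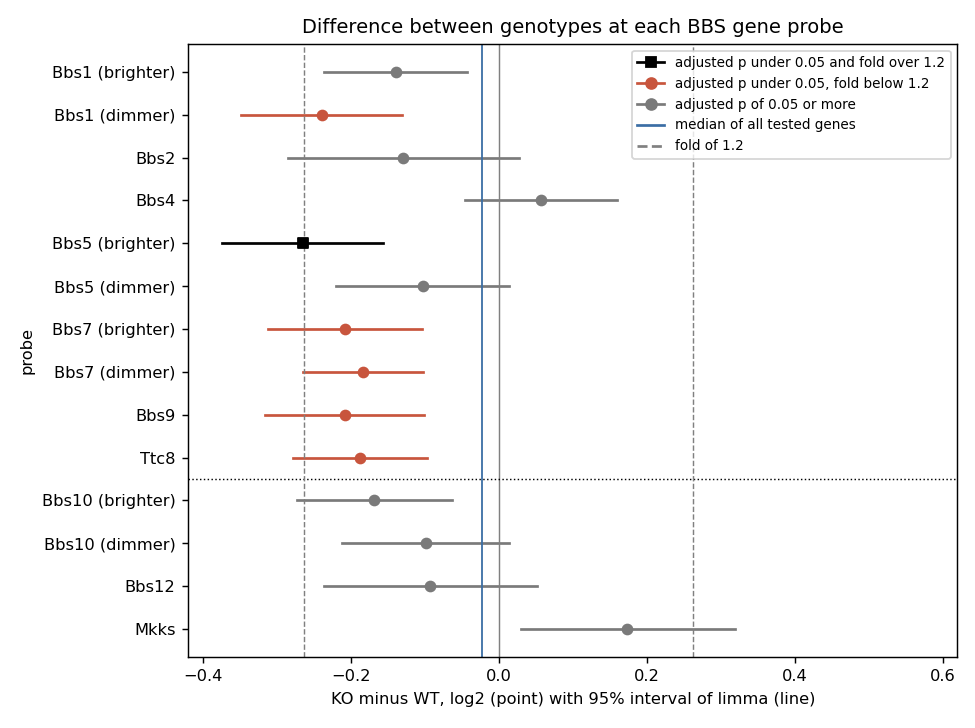
KO minus WT difference on the log2 scale (points) with its 95% interval from limma (lines) at each of the 14 BBS probes, core subunits above the dotted line; the blue line is the median of all tested genes (-0.02) and the dashed lines mark a fold of 1.2. The point of the brighter Bbs5 probe alone (black square, called) lies past the left dashed line, 5 other core probes (red) have an adjusted p under 0.05 at a smaller fold, the rest (grey) do not, and Bbs4 and Mkks are centred above 0.

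The chaperonin-like genes were mixed in direction and 0 of 3 was called by limma or by the methods' t-test (unadjusted p under 0.05 for 1 lower, Bbs10, and 1 higher, Mkks). Bbs10 was at -0.10, -0.04, -0.00 and -0.07 in WT and at -0.24, -0.17, -0.31 and -0.16 in KO at its brighter probe, with no overlap. That difference of -0.17 (SE 0.05) missed the threshold (limma adjusted p = 0.0708). The dimmer Bbs10 probe overlapped between genotypes, with levels from -1.53 to -1.35 in WT and from -1.61 to -1.51 in KO (difference -0.10, limma adjusted p = 0.267). It was -0.06 without WT replicate 3 (limma adjusted p = 0.481) and -0.05 after normexp background correction (limma adjusted p = 0.582). Bbs12 was at 2.10, 2.27, 2.36 and 2.31 in WT and at 2.14, 2.10, 2.24 and 2.20 in KO. Its WT replicate 1 was as low as the KO samples, and the difference was -0.09 (SE 0.06, 95% interval -0.24 to 0.05, limma adjusted p = 0.415). Without WT replicate 1 it was -0.14 (limma adjusted p = 0.159), and without WT replicate 3 it was -0.06 (limma adjusted p = 0.666).

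Mkks, also named Bbs6 and the member after which McKusick-Kaufman syndrome is named, was at 2.02, 2.16, 2.18 and 2.09 in WT and at 2.18, 2.41, 2.34 and 2.22 in KO. The lowest KO value lay just below the highest WT value, and the other 3 KO values were above all WT values. The KO signal was 113% of WT (difference 0.17, SE 0.06, 95% interval 0.03 to 0.32), which reached an unadjusted p of 0.024 but not the adjusted threshold (limma adjusted p = 0.142). It lay above 0 in all 25 alternatives, scalings included, at 0.13 to 0.21, with adjusted p of 0.0554 to 0.369. With 1 probe for Mkks and 1 for Bbs12, these genes have no second measurement on the array.

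The core and chaperonin-like genes were then set side by side in each sample, as the median over genes of the level minus its WT mean. For the 7 core subunits this was -0.05, 0.00, -0.01 and 0.04 in WT and -0.16, -0.19, -0.16 and -0.23 in KO. For the 3 chaperonin-like genes it was -0.09, 0.01, 0.07 and -0.01 in WT and -0.12, -0.12, -0.02 and -0.06 in KO. The core values parted the genotypes and the chaperonin-like values overlapped. Core minus chaperonin-like ran from -0.08 to 0.05 in WT and from -0.16 to -0.04 in KO, so this gap between the groups overlapped between genotypes as well. The median difference between genotypes was -0.19 for the core genes and -0.09 for the chaperonin-like genes. Without WT replicate 1 these were -0.18 and -0.14, and without WT replicate 3 the chaperonin-like median was -0.06. These medians describe genes chosen with earlier results known, and no test of the contrast was made. The lowest sample was a KO sample in 8 of the 10 genes, spread evenly with 2 genes for each KO sample, and WT replicate 1 was lowest for Bbs4 and Mkks. The highest sample was WT replicate 4 in 5 genes (Bbs1, Bbs2, Bbs5, Bbs7 and Bbs9).

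Markers of retinal cell types moved with genotype in the same arrays. Among 18 rod markers, 17 were below 0 and 6 were called lower (median -0.22; 1.77% of all genes were called lower), and the summed rod signal, relative to the 75th percentile, was 3194 to 3316 in WT and 2691 to 2896 in KO. Rod markers deviated from their WT mean by a median of -0.18, -0.26, -0.21 and -0.23 in the KO samples. Cone markers had a median difference of 0.19 (10 of 10 above 0, 2 called higher where 2.2% of all genes were, summed signal 255.9 to 261 in WT and 283.9 to 295.2 in KO). The median was 0.20 for Müller glia markers (8 of 9 above 0, 3 called higher, 342.3 to 360.4 and 408.5 to 417.2) and 0.35 for microglia markers (10 of 10 above 0, 5 called higher, 12.44 to 13.35 and 15.68 to 16.23). Retinal pigment epithelium markers (8 of 9 tested, summed signal 16.73 to 20.64 in WT and 16.82 to 21.03 in KO) and lens markers (5 of 7 tested, 0.90 to 1.03 and 0.93 to 1.15) overlapped between genotypes. None of the marker lists was used to adjust the BBS values, and their part in the differences was not tested. In whole retina, fewer cells of a type and less RNA per cell cannot be told apart.

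**Figure D3:**
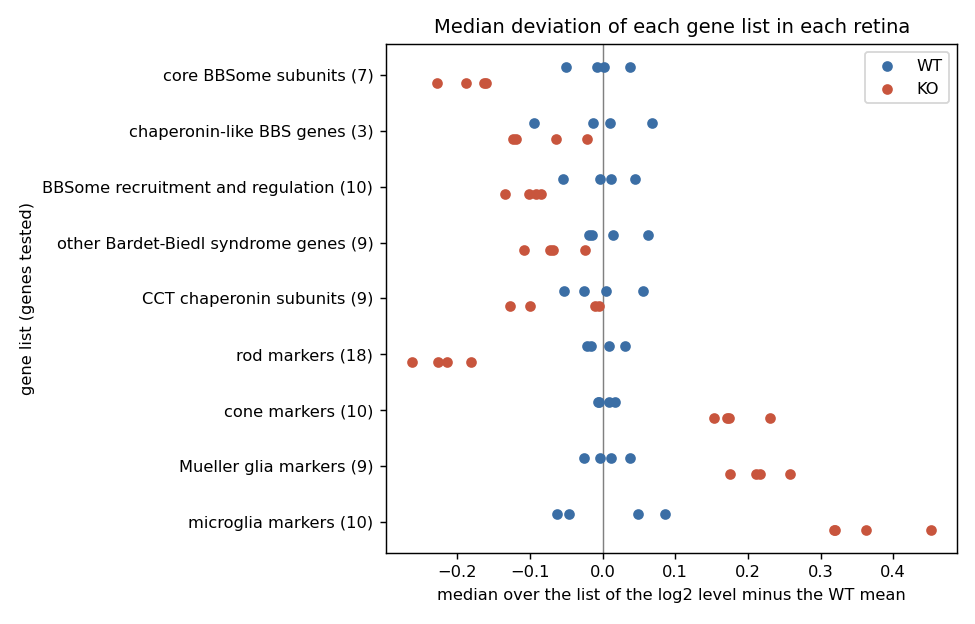
Median over each gene list of the log2 level minus the WT mean, in each of 4 WT (blue) and 4 KO (red) retinas, with the number of genes tested in brackets. Core subunits sit at -0.23 to -0.16 in KO and rod markers at -0.26 to -0.18, the chaperonin-like genes and CCT subunits overlap with WT, and cone, Müller glia and microglia markers lie above 0 in KO.

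Other genes of the pathway were taken from lists of known roles, and in them 0 genes were called by limma or by the methods' t-test. Of 10 genes tested that recruit or regulate the BBSome, 9 lay below 0 (median -0.12), and 4 were lower and 0 higher at an unadjusted p under 0.05. Of all genes 57.8% lay below 0, and 15.3% were lower and 10.9% higher at that p. Arl6, the GTPase that recruits the complex to membranes, had probes with differences of -0.12 (SE 0.06, limma adjusted p = 0.289) and -0.16 (SE 0.05, limma adjusted p = 0.0948). Lztfl1, which holds back the entry of the BBSome into cilia, had -0.11 (SE 0.05, limma adjusted p = 0.225) and -0.28 (SE 0.07, limma adjusted p = 0.0611). Bbip1, the small subunit that completes the BBSome, had no probe matched here. Ift27, an intraflagellar transport GTPase that acts in the exit of the BBSome from cilia, was the 1 gene of this list with an adjusted p under 0.05 at any fold, and it is named here after its values were seen. It differed by -0.15 (SE 0.03, limma adjusted p = 0.0393), below the minimum fold.

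The 9 CCT subunits, the partners of the chaperonin-like genes, had a median of -0.06. Of them 7 lay below 0, 0 parted the genotypes, and 1 (Cct6b) was lower at an unadjusted p under 0.05, no more than the 15.3% of all genes. Their differences ran from -0.18 to 0.01. In the list of other Bardet-Biedl syndrome genes 7 of 9 tested were below 0 (median -0.09), 1 was lower at an unadjusted p under 0.05 and 0 were higher, again no more than the share of all genes. That gene was Wdpcp, with a difference of -0.25 (SE 0.06) and a limma adjusted p of 0.0563. Of the membrane proteins that the BBSome is known to carry or remove, 7 of 8 genes were tested, since Npy2r did not pass the filter on dim probes. Gpr161 was well above background on 4 WT arrays but on only 1 KO array, so its KO level was mostly not measured and its difference is not given. Without it, a choice made after seeing the data, 2 of the other 6 genes lay below 0 and 4 above (median 0.06), and 1 was lower and 1 higher at an unadjusted p under 0.05. The 1 higher was Sstr3, with a difference of 0.13 (limma adjusted p = 0.133). Cct6b, Wdpcp, Gpr161 and Sstr3 are likewise named after their values were seen.

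**Figure D4:**
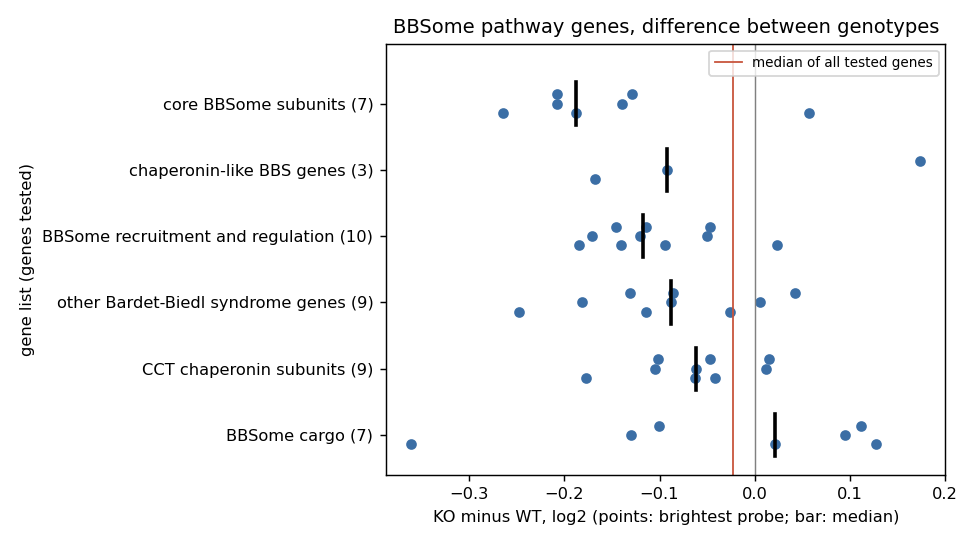
KO minus WT difference on the log2 scale of the brightest probe of each gene (points) in 6 lists, with the median of the list (bar) and the median of all tested genes (red line at -0.02); the number of genes tested is in brackets. Core subunits have the lowest median (-0.19) of the 6 lists, and the leftmost cargo point, counted in that list's bar, is Gpr161, which was mostly not above background in KO.

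Gene profiles most like that of Bbs5 were ranked over 14920 named genes by the root mean square difference of the level minus its WT mean over the 8 arrays. The 5 closest were Tmem108 (0.03), Ndrg3 (0.03), Ttc30a1 (0.03), Ssu72 (0.03) and Pih1d2 (0.03), each with a difference between genotypes of -0.29 to -0.26. Among the BBS genes Bbs9 (0.05) and Bbs7 (0.05) were closest to Bbs5, followed by Ttc8 (0.08), and Bbs4 (0.24) and Mkks (0.33) were farthest. The profile of the mean of the 7 core subunits was closest to those of BC004004, Urod, Psmb3, Tmbim4 and Sdhaf1, at 0.01 to 0.02, with differences between genotypes of -0.17 to -0.15. This ranking favours genes with the same difference between genotypes and is a description without a test.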

How the data were processed

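Total RNA of whole retina was labelled with Cy3 and hybridised to an Agilent SurePrint G3 mouse array, and read by the authors with Feature Extraction (version 10.7.1.1 in the submitters' processing notes). Deposited per array were linear intensity values, already corrected for background and spatial trend but not scaled to other arrays. The authors' deposited table holds log2 values after a 75th percentile shift. It differed from the levels computed here by a constant per array of 0.12 to 0.15, and was used as an alternative. Per-sample columns left unused numbered 0.

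From each log2 signal the 75th percentile of its array was subtracted (taken over 59305 spots, controls left out). Outlier spots were dropped (86 to 147 per array), and repeated spots were averaged. Probes were tested (33975) if all 4 arrays of either genotype had them well above background, with limma 3.58.1 in R 4.3.3 (lmFit, eBayes), without covariates. Calls needed both an adjusted p under 0.05 and more than 1.2-fold change, which are limits the study uses. The brightest probe by mean stands for a gene, and a gene is called when 1 of its probes is. Names came from RefSeq by transcript accession without version (assembly GRCm38.p6, whereas the array design is on mm9), which named 26413 probes. Of the pathway genes listed, Bbip1 had no probe and Cfap418 no matching symbol. Not every value of the cargo list is reported here. Named genes were the 10 members, called genes of the pathway lists, Arl6, Bbip1 and Lztfl1, and the 5 closest profiles each to Bbs5 and to the core mean. No pathway gene outside the members was called, and those named otherwise were chosen after their values were seen. The members and lists were chosen with earlier results of these data known. The fit was tested on simulated data. Mean spot signals were not used here, so normexp (offset 50) was run on median signals. The number of arrays limits the precision. The other alternatives were other scalings, filters, thresholds and tests, array weights, the replicate block, outlier spots kept, averaging the probes of a gene and leaving out arrays. No slide block could be fitted with 1 slide and 1 scan.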

Additional observations from a re-analysis of the deposited data

Results flagged for a closer look

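At the dimmer Bbs5 probe, WT replicate 4 stood far from the other WT samples, at 0.87 against 0.71 to 0.73 (Dixon ratio 0.854). It was 1 of 28 groups of 4 values tested, and chance alone marks about 1 in 20 such groups. At the brighter Bbs5 probe WT replicate 4 also lay above the other WT samples, at 2.89 against 2.83 to 2.84. That group was not flagged.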

How the results depend on the processing

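All 14 BBS probes kept their sign in all 25 alternatives fitted by probe, although those that change only the threshold, the test or the filter leave the difference as it is and could not turn it. The median of -0.15 over the 10 genes ranged from -0.17 to -0.13 over 28 alternatives, and from -0.17 to -0.14 when each array was left out, a shift within the spread between samples (0.03). The count of genes called lower (1, Bbs5) was 0 under quantile normalization, cyclic loess, a median shift, a 75th percentile over probes seen on every array, no filter on dim probes, a fold over 1.5, the authors' values, and a requirement that all probes of a gene be called. It was 5 with no minimum fold, and 0 to 1 when each array was left out (1 without KO replicate 1, Bbs5, and 1 without KO replicate 3, Bbs1). Leaving out WT replicate 2 and KO replicate 2 together also gave 0. The last of these and the requirement on all probes were chosen after seeing the data. With replicate number as a block the count was 0, with or without the minimum fold. Samples of the same number correlated by 0.04 to 0.25 in their deviations from the group means. Of the WT samples, 3 of 4 correlated best with the KO sample of their number. These values do not settle whether the numbers pair samples. The cause of these changes was not tested. Scaling moved the median difference of all tested probes from -0.04 to at most -0.01.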
